A study of Homo sapiens with 6 samples.

Results

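Box C/D small nucleolar RNA genes, named SNORD, were described in K562 cells, a human erythroleukemia line. The rows taken were those with the snoRNA biotype, a symbol starting with SNORD, and a mean of at least 1 FPKM (fragments scaled to transcript length and library size) over the 6 libraries. This left 116 of 357 SNORD rows, among 46427 genes in all. A further 73 SNORD rows had some signal below that mean, and 168 were listed at 0 in every library. The rows were chosen by their measured mean over both groups, so their level is no result, and a row could pass through 1 group alone: 12 rows reached a mean of 1 FPKM only in vehicle libraries, 1 only in HR-19011 libraries, and 103 in both. Cells received 10 µM HR-19011 for 24 h or 0.1% DMSO as vehicle, with 3 libraries per group. HR-19011, which the series title calls a squaramide derivative, is known here by its code name. All libraries came from wild-type K562 cells grown in serum-containing RPMI medium. The labels give no DMSO percentage for the treated libraries. They also do not say if the libraries of a group were separate cultures, so the p-values reflect the spread between these 6 libraries, part or all of which may be technical.

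Box C/D small nucleolar RNAs guide 2′-O-methylation of ribosomal RNA: the bases upstream of box D pair with the target, and fibrillarin, carried on the same particle, adds the methyl group. A few, such as U3, U8, U13 and U14, act in the cleavage, folding or other modification of pre-ribosomal RNA. In human cells most are cut from introns of a host gene, which may encode a protein of the ribosome, the nucleolus or translation, or may be a noncoding gene such as GAS5. A mature small nucleolar RNA carries no poly(A) tail. The libraries here were made from polyadenylated RNA with a stranded kit, so levels of the mature RNA were not measured, and a value is the signal from polyadenylated or carried-over RNA over that short gene. Of the 116 rows, 47 lay in an intron of every GENCODE transcript that spans them, and 68 were intronic in some transcripts and exonic in others. Which RNA the fragments came from was not measured.

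The summed FPKM of a library was 420661 to 427819 in HR-19011 and 456639 to 467595 in vehicle. Depth is unknown, since whole reads could not be recovered from the values. Libraries correlated at r = 0.997 to 0.998 within a group and 0.891 to 0.894 across groups, over the 11856 tested genes. All 9 erythroid markers on the list (such as GATA1 and the gamma globins) averaged over 1 FPKM, and their summed level was 4280 to 4500 FPKM in HR-19011 against 9900 to 10100 FPKM in vehicle. The gamma globins weighed most in that sum, with HBG2 at a mean of 1885 against 4386 FPKM and HBG1 at 1312 against 3350 FPKM. Single markers differed: on the log2(FPKM + 1) scale, HR-19011 over vehicle, KLF1 changed by −2.70, TFRC by −0.16 and TAL1 by 0.03. Of 10 markers of other cell types, 3 reached a mean of 1 FPKM (EPCAM, LYZ and CD3D), KRT5 and MS4A1 were at 0, and the summed level was 45.1 to 47.2 FPKM against 50.3 to 53.7 FPKM. The part of these markers in the results below was not tested. In bulk RNA, fewer cells of a type and less RNA per cell cannot be told apart.

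The sequences of the rows that the results turn on follow, written 5′ to 3′ as DNA, with box C (TGATGA) and box D (CTGA) in capitals. They were read from GENCODE 29 transcripts on GRCh38, with spans from RefSeq or from the gene's own GENCODE model. The first set holds 2 rows of GAS5, SNORD76 (chr1:173866635-173866715, minus strand) and SNORD47 (chr1:173864369-173864445, minus strand), and 2 of SNHG1, SNORD27 (chr11:62855012-62855083, minus strand) and SNORD29 (chr11:62853904-62853968, minus strand). They are shown as rows with high values in the 2 largest host clusters.
SNORD76: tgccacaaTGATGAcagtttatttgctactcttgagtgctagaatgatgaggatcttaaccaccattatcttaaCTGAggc
SNORD47: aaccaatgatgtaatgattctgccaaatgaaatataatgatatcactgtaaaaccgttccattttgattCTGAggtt
SNORD27: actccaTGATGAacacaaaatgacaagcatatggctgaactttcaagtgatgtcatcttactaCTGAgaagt
SNORD29: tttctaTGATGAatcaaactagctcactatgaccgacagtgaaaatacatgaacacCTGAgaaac

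The second set holds the 3 SNORD12 copies of ZFAS1, since SNORD12C had the largest decrease on the log2(FPKM + 1) scale. They lie on the plus strand, SNORD12C at chr20:49278945-49279023, SNORD12B at chr20:49280319-49280409 and SNORD12 at chr20:49280683-49280772.
SNORD12C: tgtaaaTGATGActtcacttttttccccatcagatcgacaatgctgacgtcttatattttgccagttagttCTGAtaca
SNORD12B: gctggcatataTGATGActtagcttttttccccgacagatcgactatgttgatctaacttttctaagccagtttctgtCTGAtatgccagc
SNORD12: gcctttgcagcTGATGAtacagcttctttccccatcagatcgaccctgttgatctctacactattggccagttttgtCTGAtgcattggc
The pair SNORD50A (chr6:85677294-85677368) and SNORD50B (chr6:85677589-85677659), both on the minus strand in SNHG5, are shown as copies of 1 host with unlike decreases. Their aligned identity was 72.2%.
SNORD50A: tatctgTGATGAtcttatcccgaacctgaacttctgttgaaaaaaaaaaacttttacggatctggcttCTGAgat
SNORD50B: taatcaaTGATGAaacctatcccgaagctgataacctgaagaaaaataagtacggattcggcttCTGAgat

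The third set holds the 5 copies of SNORD14 (U14), all on the minus strand of chromosome 11, because related sequences lie there in 2 hosts. SNORD14A (chr11:17074654-17074744) and SNORD14B (chr11:17075778-17075868) are in RPS13. SNORD14C (chr11:123059335-123059422), SNORD14D (chr11:123058909-123058995) and SNORD14E (chr11:123058077-123058156) are in HSPA8.
SNORD14A: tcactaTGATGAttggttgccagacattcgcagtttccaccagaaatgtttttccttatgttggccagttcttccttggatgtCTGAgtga
SNORD14B: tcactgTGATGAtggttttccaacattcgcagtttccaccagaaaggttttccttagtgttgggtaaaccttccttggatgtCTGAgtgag
SNORD14C: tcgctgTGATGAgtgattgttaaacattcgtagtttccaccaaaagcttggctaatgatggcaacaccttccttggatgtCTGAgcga
SNORD14D: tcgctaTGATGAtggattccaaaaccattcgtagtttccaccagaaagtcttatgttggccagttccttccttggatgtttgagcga
SNORD14E: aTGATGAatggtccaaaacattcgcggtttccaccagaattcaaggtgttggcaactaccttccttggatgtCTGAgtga
The last set holds SNORD63 (chr5:138561043-138561110) and SNORD63B (chr5:138558969-138559041), on the minus strand in HSPA9, as rows that were higher in HR-19011 libraries.
SNORD63: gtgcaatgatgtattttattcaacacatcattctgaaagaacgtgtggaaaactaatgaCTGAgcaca
SNORD63B: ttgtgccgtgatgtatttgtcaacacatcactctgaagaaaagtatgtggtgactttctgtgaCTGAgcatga
A sequence could be read for 105 of the 116 rows. The letters TGATGA stood within the first 26 bases of 62.9% of them and CTGA within the last 20 bases of 98.1%, searched on the gene's own strand. Over all SNORD rows with a sequence the shares were 69.8% and 96.6%, and over 59 box H/ACA (SNORA) rows 0% and 10.2%. The printed sequences of SNORD47, SNORD63 and SNORD63B hold no TGATGA, and that of SNORD14D holds no CTGA.

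Most box C/D rows were lower in HR-19011 libraries. Of the 116 rows, 99 fell and 5 rose at an adjusted p under 0.05, and 12 were not called (limma on log2(FPKM + 1), Benjamini-Hochberg adjusted over all 11856 tested genes). Over all tested genes, 38% were called lower and 46.4% higher, so a call in itself was common. The median log2 fold change of the rows was −1.06, against 0.07 over all tested genes, and 64 rows were called lower with a log2 fold change of −1 or below, as were 6.45% of all tested genes. In 98 rows every HR-19011 library lay below every vehicle library (38.3% of all tested genes) and in 3 rows every one lay above (46.9%). Summed over the 116 rows, the HR-19011 libraries had 624, 609 and 632 FPKM (621 ± 11.6, SD, n = 3) and the vehicle libraries 1548, 1577 and 1616 FPKM (1580 ± 34.4). That sum was 2.54-fold lower in HR-19011, and it was 0.142% to 0.15% of all FPKM in HR-19011 libraries against 0.335% to 0.346% in vehicle libraries. The 1 FPKM added before taking logs makes the changes of low rows look smaller than they are, and the rows of 1 host share its transcription and are not independent.

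**Figure D1:**
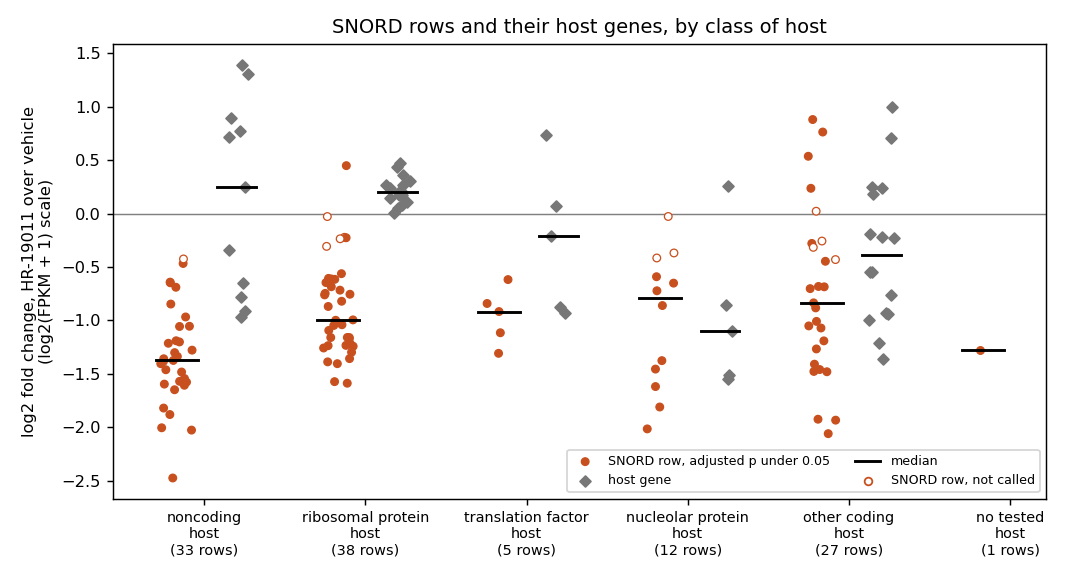
Log2 fold change (HR-19011 over vehicle, log2(FPKM + 1) scale) of the 116 SNORD rows (circles, open where not called) and of their host genes (grey diamonds), by class of host, with the median of each as a bar. The rows sit mostly below 0 in every class, with medians from −1.37 to −0.79 in the 5 classes of host, while the ribosomal protein hosts sit at or above 0.

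The 33 rows in 11 noncoding hosts had a median log2 fold change of −1.37, and 32 of them fell. Their summed level was 312 ± 9.04 FPKM in HR-19011 and 885 ± 14.3 FPKM in vehicle libraries (SD, n = 3), 2.84-fold lower. The hosts did not move alike: 6 of the 11 rose and 5 fell. GAS5, a noncoding gene whose exons carry no conserved protein, holds 10 of the rows (NCBI gene 60674, chr1:173863901-173869045). GAS5 had 490.4, 488 and 502 FPKM in HR-19011 libraries against 204, 199 and 194 FPKM in vehicle libraries, every HR-19011 value lying far above every vehicle value. Its log2 fold change was 1.31 (SE 0.03, adjusted p = 4.49e-10). All 10 of its SNORD rows fell, by log2 fold changes between −1.19 and −1.61. SNORD47, a guide for 28S ribosomal RNA, had 29.2, 24.1 and 25.05 FPKM in HR-19011 and 66.1, 58.3 and 60.8 FPKM in vehicle libraries (log2 fold change −1.21, SE 0.07, adjusted p = 3.43e-07). SNORD76, also a 28S guide, had 22.0, 24.3 and 22.2 FPKM against 63.1, 66.9 and 63.9 FPKM (−1.46, SE 0.04). The groups did not overlap in any of the 10 rows.

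SNHG1 (NCBI gene 23642, chr11:62851978-62855885), whose introns hold the run of genes SNORD22 and SNORD25 to SNORD31, carried 7 of the rows. SNHG1 itself was modestly lower, with 134, 139 and 133 FPKM in HR-19011 against 169, 168 and 175 FPKM in vehicle libraries (log2 fold change −0.34, SE 0.03, adjusted p = 3.40e-06). All 7 rows fell by more than the host, with log2 fold changes from −1.34 to −2.03, and their sum was 119 ± 3.85 FPKM against 379 ± 9.76 FPKM. SNORD29 had 23.9, 24.7 and 25.3 FPKM in HR-19011 and 73.4, 73.1 and 79.1 FPKM in vehicle libraries (−1.57, SE 0.04, adjusted p = 1.54e-09). SNORD27, a guide for 18S ribosomal RNA, had 12.4, 12.6 and 15.8 FPKM against 57.3, 57.0 and 59.9 FPKM (−2.03, SE 0.08, adjusted p = 2.10e-08). In both rows the spread within a group was small beside the gap between groups.

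ZFAS1 (NCBI gene 441951) rose, with 154, 142 and 153 FPKM in HR-19011 against 79.8, 78.9 and 80.7 FPKM in vehicle libraries (log2 fold change 0.89, SE 0.03, adjusted p = 2.04e-08). Its 3 SNORD12 copies, all printed above, fell. SNORD12C (NCBI gene 26765) had 1.86, 1.43 and 1.29 FPKM in HR-19011 and 11.2, 13.8 and 14.1 FPKM in vehicle libraries, the most negative log2 fold change of the 116 rows (−2.47, SE 0.10, adjusted p = 3.13e-08). SNORD12 had 4.15, 5.59 and 4.52 FPKM against 15.8, 15.4 and 16.8 FPKM (−1.57, SE 0.08, adjusted p = 1.65e-07), and SNORD12B changed by −1.82. The copies share 66.7% to 71% of aligned bases and the run cagatcgac, and how the authors divided fragments that match several copies is not known here.

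**Figure D2:**
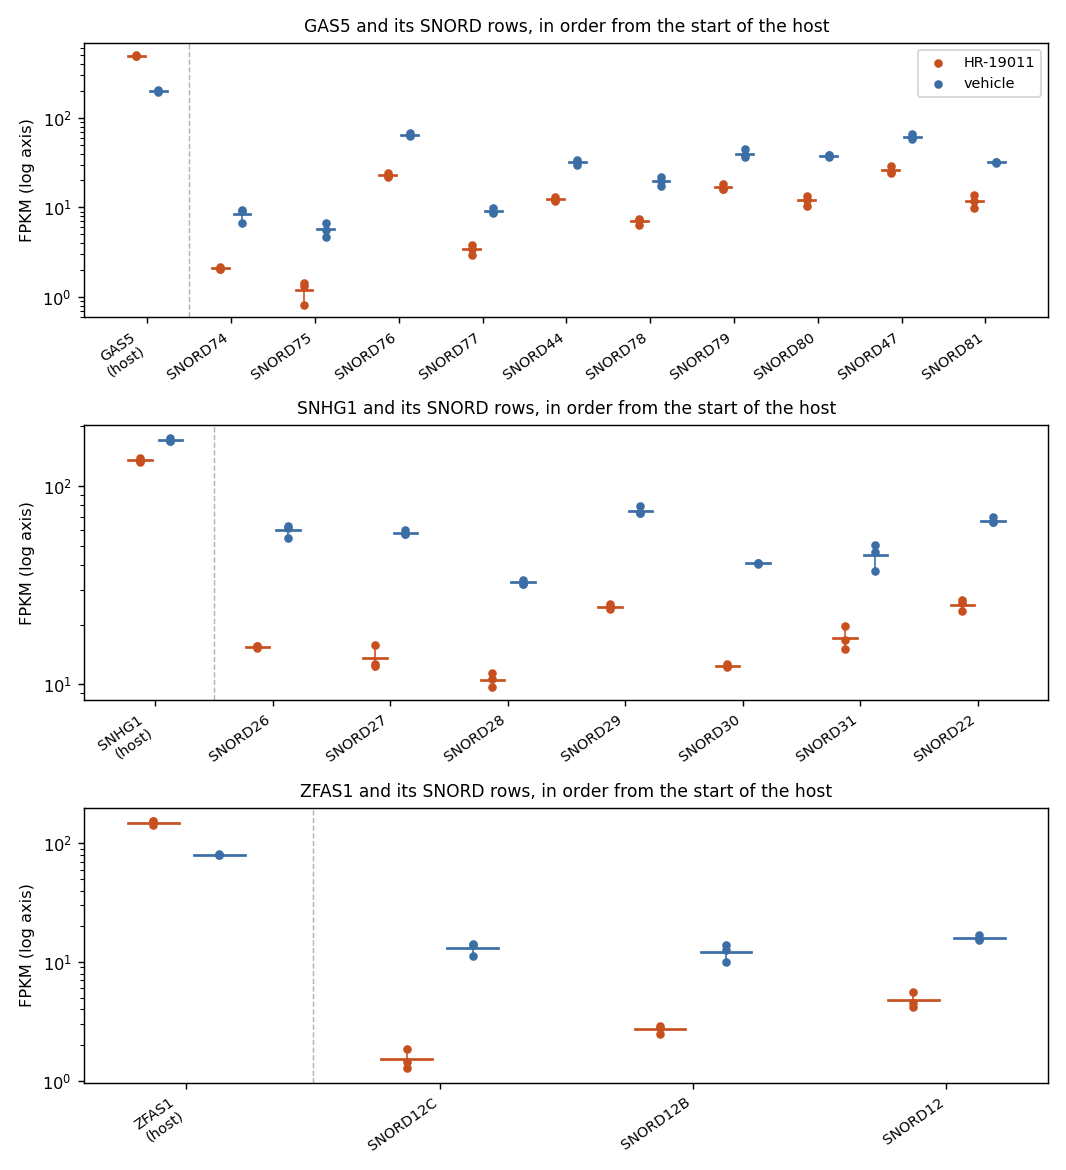
FPKM (log axis) of GAS5, SNHG1 and ZFAS1 and of their SNORD rows, in order from the start of the host, with HR-19011 left of vehicle; points are libraries, horizontal bars means, and vertical lines SD (n = 3). GAS5 and ZFAS1 sit higher in HR-19011 while every one of their SNORD rows sits lower, and in SNHG1 both host and rows sit lower, the rows by more.

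The other noncoding hosts followed both patterns. SNHG29 had 626, 624 and 645 FPKM in HR-19011 against 373, 367 and 371 FPKM in vehicle libraries (log2 fold change 0.77), while its 3 rows fell by 0.65 to 1.05 on the log2 scale. Among those rows SNORD65, an 18S guide, had 10.7, 10.4 and 10.5 FPKM against 24.35, 21.5 and 23.0 FPKM. SNHG32 rose by 1.39, and its rows SNORD48 and SNORD52 changed by −1.06 and −0.69. SNHG5 rose by 0.72, and its 2 copies differed in size of change. SNORD50B had 2.53, 2.85 and 1.89 FPKM in HR-19011 against 13.02, 12.05 and 12.9 FPKM in vehicle libraries (−2.004, SE 0.10), and SNORD50A had 1.41, 1.46 and 1.74 FPKM against 3.89, 4.21 and 3.75 FPKM (−0.97, SE 0.07). The difference between these copies was not tested. SNHG12, SNHG16, SNHG19 and SNHG25 fell, as did the 5 rows in them, whose log2 fold changes were −0.47 to −1.48. SNHG6 rose by 0.25, and its row SNORD87 was not called, with 4.82, 7.16 and 7.37 FPKM in HR-19011 and 12.3, 5.96 and 9.40 FPKM in vehicle libraries, which overlap.

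Ribosomal protein genes were hosts to 38 rows, of which 33 fell and 1 rose, with a median log2 fold change of −0.997. The summed level was 180 ± 7.86 FPKM in HR-19011 and 394 ± 20.1 FPKM in vehicle libraries, 2.19-fold lower. The 16 hosts went slightly the other way: 14 rose (13 with TMM scaling, 16 with TPM), by 0.08 to 0.48, none fell, and 2 were not called. RPL13A had 1835, 1846 and 1822 FPKM in HR-19011 against 1320.5, 1386 and 1368 FPKM in vehicle libraries (0.43, SE 0.02). Its 4 rows fell, and SNORD34, a 28S guide, had 3.95, 6.63 and 6.33 FPKM against 17.2, 16.8 and 21.4 FPKM (−1.57, SE 0.16, adjusted p = 1.36e-05). RPL3 rose by 0.30, and its 4 rows fell by 0.82 to 1.39 on the log2 scale, led by SNORD139 with 11.6, 13.98 and 13.7 FPKM against 34.5, 36.3 and 36.5 FPKM.

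In RPL23A all 4 rows fell, with SNORD4A at 7.06, 7.62 and 7.02 FPKM in HR-19011 against 15.9, 19.1 and 17.3 FPKM in vehicle libraries. In RPL7A 3 of 4 rows fell. SNORD36A, an 18S guide, had 14.8, 15.3 and 10.7 FPKM against 28.3, 29.8 and 27.9 FPKM, while SNORD24 was not called, at 3.56, 2.07 and 3.12 FPKM against 3.53, 2.95 and 2.41 FPKM. In RPL4 3 of 4 rows fell, with SNORD16, an 18S guide, at 4.44, 3.48 and 4.93 FPKM against 12.2, 12.5 and 11.1 FPKM, and SNORD18B was not called. Neither row of RPL17, SNORD58A and SNORD58C, was called. RACK1, a ribosomal scaffold protein, rose by 0.36 and held rows that moved apart. SNORD96A, a guide for 5.8S ribosomal RNA, had 9.30, 9.29 and 8.61 FPKM in HR-19011 and 18.5, 19.1 and 19.7 FPKM in vehicle libraries (−0.998, SE 0.04, adjusted p = 3.72e-08), whereas SNORD95 was higher, as described further on.

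Hosts that encode nucleolar proteins held 12 rows, 9 of which fell (median log2 fold change −0.79), and 4 of these 5 hosts fell too. NOP56, itself a core protein of the box C/D particle, had 47.1, 49.1 and 45.5 FPKM in HR-19011 against 132, 135 and 142 FPKM in vehicle libraries (−1.51, SE 0.04, adjusted p = 1.81e-09). Its 3 rows fell by 1.45 to 2.01 on the log2 scale, and SNORD57, an 18S guide, had 2.52, 2.34 and 1.65 FPKM against 9.99, 12.01 and 13.4 FPKM (−2.01, SE 0.12). NCL, which encodes nucleolin, fell by 1.54 on the log2 scale and its row SNORD20 by 1.62. In FPKM, NCL was 2.94-fold lower. SNORD20 was 6.37-fold lower, with 0.542, 0.669 and 0.690 FPKM in HR-19011 against 3.87, 3.51 and 4.73 FPKM in vehicle libraries. This low row reached a mean of 1 FPKM only in vehicle libraries, and the 1 FPKM added before taking logs shrinks its change. GNL3, the nucleolar GTPase nucleostemin, had 40.0, 39.9 and 40.2 FPKM against 89.8, 84.2 and 86.1 FPKM (−1.10, SE 0.03), and its 4 rows had log2 fold changes from −0.42 to −0.72, of which that of SNORD19 was not called. SNORD19B, an 18S guide and its most abundant row, had 4.11, 4.28 and 3.29 FPKM against 5.57, 7.02 and 6.49 FPKM (−0.59, SE 0.10). The 5 rows in translation factor genes (EIF4A1, EIF4A2, EIF4G2, EEF1B2 and EEF2) all fell, by 0.62 to 1.31 on the log2 scale, while 3 of those hosts fell (EIF4A2 not with TPM or quantile normalization), EEF2 rose by 0.73 and EEF1B2 was not called.

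Other coding hosts held 27 rows, of which 19 fell and 4 rose. RABGGTB, which encodes a subunit of a prenyltransferase that modifies Rab proteins, had 36.2, 35.4 and 35.3 FPKM in HR-19011 against 70.5, 66.5 and 70.2 FPKM in vehicle libraries, and its 3 SNORD45 rows fell. SNORD45B had 11.4, 10.3 and 9.59 FPKM against 25.8, 26.2 and 27.4 FPKM (−1.27, SE 0.06). C19orf48 fell by 0.54 and its 3 rows by 0.88 to 1.48, SNORD88B having 4.10, 3.99 and 3.64 FPKM against 14.4, 13.4 and 10.4 FPKM. SNORD17, a longer row of 237 bases in SNX5, had 1.64, 3.11 and 1.46 FPKM against 10.3, 9.72 and 11.3 FPKM (−1.93, SE 0.17, adjusted p = 4.81e-06), while SNX5 changed by −0.19. NOP53, a ribosome biogenesis factor counted here among other coding hosts, rose by 1.00 while its row SNORD23 fell by 1.48 on the log2 scale.

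Copies of SNORD14, which encodes the U14 RNA needed for 18S ribosomal RNA maturation, lay in 2 hosts that changed differently. HSPA8, a constitutive heat shock protein, had 612, 639 and 618 FPKM in HR-19011 against 1444, 1409 and 1479 FPKM in vehicle libraries (−1.21, SE 0.03), and RPS13 had 773, 714 and 749 FPKM against 750.2, 741 and 733 FPKM and was not called. All 5 copies fell. The 3 copies in HSPA8 summed to 4.16, 7.63 and 6.94 FPKM in HR-19011 against 28.3, 33.3 and 29.75 FPKM in vehicle libraries, 4.87-fold lower. The 2 copies in RPS13 summed to 10.0, 9.46 and 8.72 FPKM against 19.75, 21.4 and 27.6 FPKM, 2.44-fold lower. The HSPA8 copies thus stood at 0.415, 0.806 and 0.796 of the RPS13 copies in HR-19011 libraries, and at 1.43, 1.55 and 1.08 of them in vehicle libraries, without overlap. This ratio was chosen after its values were seen and was not tested. Aligned identity among the 5 copies was 72% to 84.9%, and all hold the run cttccttggatgt. Whether fragments matched more than 1 copy was not measured, and how the authors divided such fragments is not known here. SNORD14C had 2.57, 2.54 and 2.59 FPKM against 13.6, 14.2 and 13.7 FPKM (−2.06, SE 0.04, adjusted p = 4.18e-10).

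The 5 rows called higher lay in 3 hosts, each of which rose. SNORD143 and SNORD144 lie in SEC31A, a COPII coat protein gene that had 86.2, 89.3 and 88.4 FPKM in HR-19011 against 54.0, 52.2 and 54.8 FPKM in vehicle libraries (0.70, SE 0.03). SNORD143 had 2.91, 4.85 and 4.46 FPKM against 2.20, 1.31 and 1.72 FPKM (0.88, SE 0.16, adjusted p = 7.68e-04), and SNORD144 had 1.499, 1.30 and 1.98 FPKM against 0.733, 0.463 and 0.384 FPKM (0.76, SE 0.12). SNORD144 is the 1 row that reached a mean of 1 FPKM only in HR-19011 libraries. It passed the filter through the group where it was high, so its call is no independent result. HSPA9, the mitochondrial heat shock protein mortalin, rose by 0.25. Its row SNORD63B had 9.83, 8.35 and 9.76 FPKM against 6.08, 6.32 and 5.90 FPKM (0.54, SE 0.06, adjusted p = 3.58e-05), without overlap. SNORD63 had 2.05, 1.56 and 1.9 FPKM against 1.33, 1.68 and 1.22 FPKM (0.24, SE 0.09, adjusted p = 0.0378), and SNORD95 in RACK1 had 2.48, 2.76 and 3.28 FPKM against 2.78, 1.74 and 1.13 FPKM (0.45, SE 0.18, adjusted p = 0.0453). Both of these overlapped between groups. The call of SNORD63 was lost without HR-19011 replicate 1 or 3 or vehicle replicate 1 or 3 (adjusted p from 0.0896 to 0.125), and that of SNORD95 without replicate 2 or 3 of either group (0.084 to 0.137), with SNORD95 at 0.25 without vehicle replicate 3. SNORD62B in PRRC2B, with 2.28, 2.50 and 2.34 FPKM against 2.40, 1.93 and 2.69 FPKM, was not called.

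**Figure D3:**
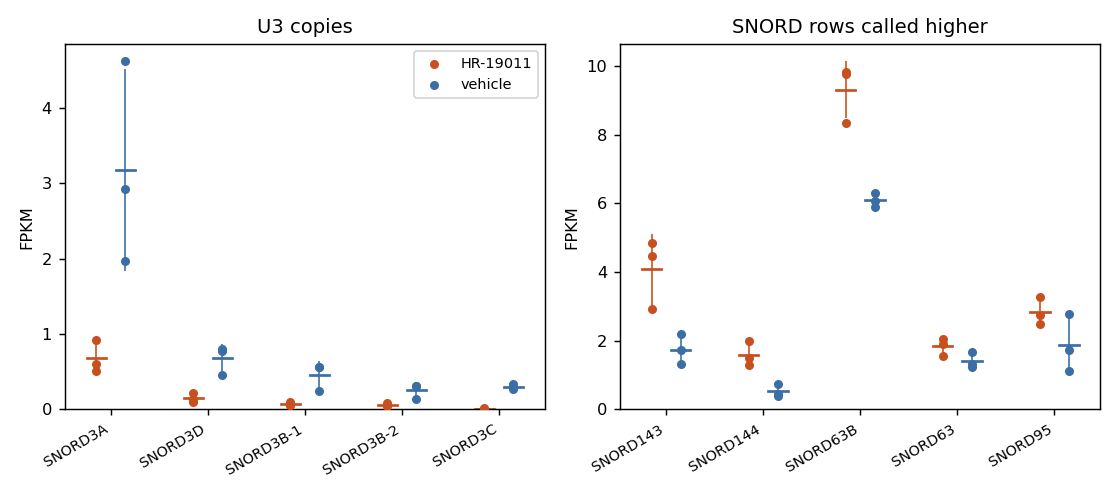
FPKM of the U3 copies with a mean above 0.1 (left) and of the 5 SNORD rows called higher (right), with HR-19011 left of vehicle; points are libraries, horizontal bars means, and vertical lines SD (n = 3). Every U3 copy lies lower in all 3 HR-19011 libraries, and the groups overlap in SNORD63 and SNORD95 but not in SNORD143, SNORD144 and SNORD63B.

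U3, U8 and U13 are transcribed from promoters of their own rather than cut from introns, and act in early cleavage of pre-ribosomal RNA (U3), in maturation of the large subunit's RNAs (U8) and in acetylation of 18S ribosomal RNA (U13). Of 13 U3 rows only SNORD3A (NCBI gene 780851, chr17:19188016-19188232) passed the filter, and 7 were at 0 in every library. SNORD3A had 0.915, 0.606 and 0.506 FPKM in HR-19011 against 4.62, 1.97 and 2.93 FPKM in vehicle libraries (−1.27, SE 0.20, adjusted p = 3.09e-04). SNORD3A reached a mean of 1 FPKM only in vehicle libraries, so it passed the filter through the group where it was high. SNORD3D had 0.133, 0.222 and 0.0943 FPKM against 0.804, 0.779 and 0.463 FPKM, and SNORD3B-1, SNORD3B-2 and SNORD3C likewise lay lower in all 3 HR-19011 libraries, all below the filter. In a fit with no filter all 4 were called lower, with adjusted p from 5.33e-05 (SNORD3C) to 0.0194 (SNORD3B-2). That fit called 18.5% of its 26374 genes lower and 33.5% higher. Over the 13 rows the U3 signal was 0.966 ± 0.197 FPKM in HR-19011 and 4.88 ± 1.68 FPKM in vehicle libraries (SD, n = 3), 5.06-fold lower. These copies are near-identical, so the division of fragments among them is uncertain and the sum is the safer value. None of the 11 U13 rows passed the filter, and 6 were at 0 in every library. They summed to 1.08, 0.974 and 0.80 FPKM against 0.114, 0.365 and 0.0696 FPKM, the reverse order, at levels below the filter. SNORD13 itself overlapped between groups, with 0.402, 0.229 and 0 FPKM in HR-19011 against 0.0455, 0.208 and 0.0696 FPKM in vehicle libraries. With no filter SNORD13F (adjusted p = 0.0259) and SNORD13E (0.0371) were called higher, and SNORD13 was not called (0.513). SNORD13E was at 0 in every vehicle library. SNORD118 (U8) was between 0.00138 and 0.0119 FPKM in all 6 libraries.

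The ratio of a SNORD row to its host was taken within each library and tested over 449 nested genes of any biotype with a tested host, for the 115 rows that have one (53 hosts; 22 rows were matched without a strand). The ratio was lower in HR-19011 for 77 rows and higher for 2, with a median change of −0.91 on the log2 scale. Over all 449 pairs, 41.2% were lower and 11.4% higher, and over the 334 pairs that are not SNORD rows 32.3% and 14.7%. By class, the ratio was lower in 29 of 33 rows of noncoding hosts, 34 of 38 of ribosomal protein hosts, 4 of 5 of translation factor hosts, 3 of 12 of nucleolar protein hosts and 7 of 27 of other coding hosts. The 1 FPKM added before taking logs shrinks the change of a low row more than that of its host. A larger fall of a low row can thus go uncalled, and the counts by class depend on row levels too. For example, SNORD134 was 5.04-fold lower in FPKM and its host FASN 2.59-fold, yet the ratio changed by 0.31 and was not called. SNORD134 reached a mean of 1 FPKM only in vehicle libraries. In GAS5 all 10 ratios were lower, with log2 changes of −2.50 to −2.91. The ratio was higher for SNORD19B in GNL3 (0.50, SE 0.14, adjusted p = 0.0218) and SNORD94 in PTCD3 (0.71, SE 0.13, adjusted p = 0.00401).

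Of the 53 hosts, 23 fell (43.4%) and 27 rose, near the 38% and 46.4% of all tested genes. Of the 27 hosts that rose, 17 had every row lower. For scale, 85.3% of all rows were lower, and 24 of the 53 hosts hold 1 row. In all, 53 rows were lower with a higher host, 41 with a lower host and 4 with a host not called. Across the 53 hosts, the change of the host and the median change of its rows were weakly related (Pearson r = 0.21, Spearman rho = 0.16), a description over hosts that share the same 6 libraries. The median row stood at 1.11% of its host's FPKM in HR-19011 libraries and 2.86% in vehicle libraries.

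**Figure D4:**
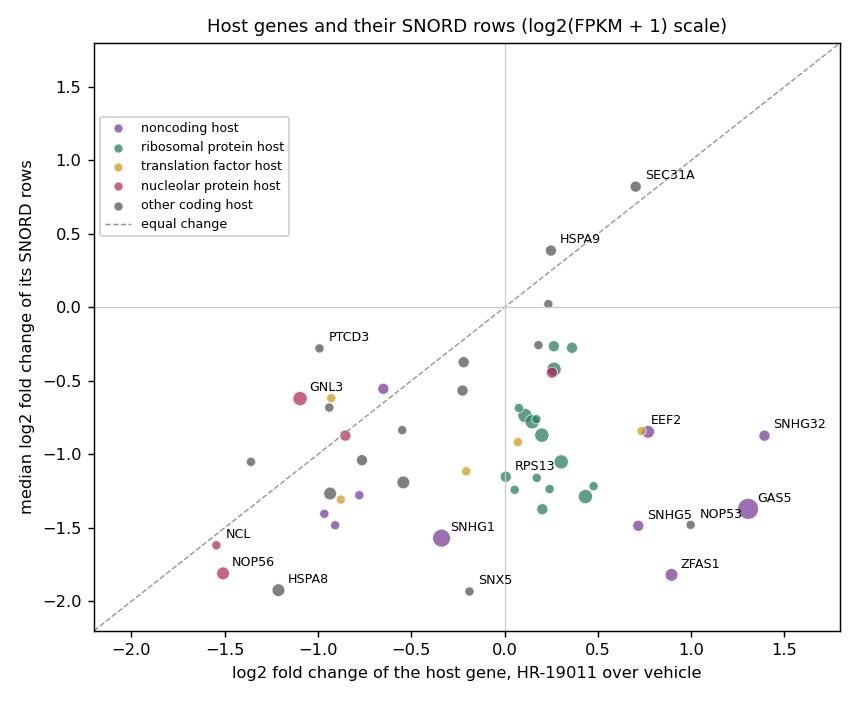
Median log2 fold change of the SNORD rows of each host against the log2 fold change of the host, for 53 hosts, coloured by class and sized by number of rows; the dashed line marks equal change. Ribosomal protein hosts lie right of 0 and below the line, NOP56, NCL and GNL3 lie left of 0 and nearer to it, and SEC31A and HSPA9 lie above 0 on both axes.

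Box H/ACA rows, the other class of small nucleolar RNA genes, gave similar counts by the same rule: 50 of 60 (83.3%) fell and 1 rose, with a median log2 fold change of −0.87. The ratio to the host was lower in 29 and higher in 4 of their 57 pairs. Among 277 nested genes that are not small nucleolar RNA genes, 110 fell and 84 rose (median −0.10), a lower share of 39.7% beside 38% of all tested genes, and their ratio was lower in 79 and higher in 45. Of 134 other genes shorter than 300 bases, 65 fell (48.5%) and 21 rose (median −0.31). The differences between these sets were not tested.

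The SD of the 116 log2 fold changes was 0.60, and the pooled SD within the 29 hosts that hold at least 2 rows was 0.34 (91 rows), against a median SE of 0.12 for a single row. On the log2(FPKM + 1) scale, rows with higher mean FPKM had more negative changes (Spearman rho = −0.52 over 116 rows). The pseudocount pulls low rows toward 0 on this scale, which can give such a relation by itself. The relation in FPKM was not tested. Length, 48 to 237 bases with a median of 75, had little relation to the change (rho = −0.12). The order of levels was largely kept, with rho = 0.86 between the HR-19011 and vehicle means. The rows varied more between libraries than other genes did, with a median coefficient of variation within a group of 15.2% against 4.11% over all tested genes. The rows are short, with a median mean of 6.11 FPKM, and the 2 sets were not matched for length or level.

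Transcripts of genes whose proteins build and process the particle were mostly lower too, and protein levels were not measured. Of the 32 genes on the list, 29 fell, 2 rose and PARN was not called, at a median log2 fold change of −0.56 (38% of all tested genes were lower, median 0.07). All 4 core protein genes fell: FBL, which encodes the methyltransferase fibrillarin, had 146, 157 and 151 FPKM in HR-19011 against 299, 311 and 306 FPKM in vehicle libraries (−1.01, SE 0.03, adjusted p = 4.89e-09), and NOP58 and SNU13 changed by −0.85 and −0.82 beside NOP56. RRP9, specific to U3, had 11.3, 10.7 and 10.3 FPKM against 43.4, 43.9 and 43.7 FPKM (−1.92, SE 0.04, adjusted p = 3.96e-10). NOLC1, a nucleolar chaperone of these particles, changed by −1.53, and HSP90AA1, which acts in their assembly, by −1.46. The 10 assembly factor genes all fell. The 2 that rose were exonucleases that degrade RNA from the 5′ end, XRN1 (0.76) with 6.09, 5.95 and 5.84 FPKM against 3.35, 2.94 and 3.02 FPKM, and XRN2 (0.32), which trims intron-encoded small nucleolar RNAs in human cells.

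Just above the filter were SNORD134 in FASN (mean 1.06 FPKM) with 0.391, 0.592 and 0.0673 FPKM in HR-19011 against 1.65, 1.62 and 2.03 FPKM in vehicle libraries, SNORD144 (1.06) and SNORD1C (1.12). Of these, SNORD134 and SNORD1C reached a mean of 1 FPKM only in vehicle libraries, and SNORD144 only in HR-19011 libraries. Just below were SNORD124 (0.980), SNORD15A (0.884) and SNORD98 (0.871). In a fit with no filter, 10 of the 73 rows under the mean were lower and 4 higher, where 18.5% and 33.5% of the 26374 fitted genes were. The tandem genes SNORD113 to SNORD116, known from imprinted loci active in brain, gave no row that passed. Every row of SNORD114, SNORD115 and SNORD116 was at 0 in every library, as were 8 of the 9 rows of SNORD113.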

How the data were processed

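RNA of 6 K562 libraries was measured, 3 with HR-19011 and 3 with vehicle, grouped by sample title. Per the labels' protocols, libraries were made from polyadenylated RNA with a stranded kit. The submitters' processing notes list StringTie 2.1.3b, HISAT2 2.1.0, Trimmomatic 0.38 and SAMtools 1.9, beside HISAT, Bowtie2 and DESeq2 1.24.0, and the GRCh38 build. Per the file headers, each deposited file gives the authors' FPKM of every gene. Depth is unknown: at the best step, 29.4% to 37.5% of snoRNA values lay within 0.1 of a whole multiple, where chance gives more than 20%, so no count model was used.

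The 11856 genes that averaged 1 FPKM or more were fitted on log2(FPKM + 1) with limma 3.58.1 (R 4.3.3), group alone in the model, a variance trend on the mean, two-sided tests and Benjamini-Hochberg adjustment at 0.05. The fit was tested on simulated data. Ratios to the host were fitted likewise, without a trend, over 449 pairs. An exact permutation test of 3 against 3 cannot go below 0.1 and was not used. A host is the most abundant tested gene, other than a snoRNA, that contains the row on its strand, from RefSeq positions by gene identifier. Genes named in full follow a rule: U3, U8 and U13 rows, the most abundant row of each host with 3 or more rows, the 6 largest changes each way, the 3 rows either side of the filter, and core and leading snoRNP proteins. Some genes that this rule names are not reported here. Further names were picked with their values in view. The members and lists were chosen with earlier results of these data known. Alternatives were a pseudocount of 0.1 or 5, a filter at a mean of 5 FPKM or none, TMM (30% of log ratios and 5% of mean logs trimmed at each end), TPM, quantile normalization, the variance model, a replicate block, other rules for the rows, and leaving out each library. Libraries of a group shared no more than 0.0208% of identical values, so none was counted as a duplicate.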

Additional observations from a re-analysis of the deposited data

How the results depend on the processing

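The analysis as reported called 99 SNORD rows lower. Alternatives that fitted all 116 rows called 97 to 109, except 93 with no filter. Of the 99, 95 to 99 stayed lower under these alternatives (95 without vehicle replicate 2, 97 with TPM), again except 93 with no filter, and none reversed its direction. With a mean of at least 5 FPKM, 65 of the 68 rows left were lower. Leaving out 1 library gave 98 to 101 lower and 3 to 5 higher rows. The 5 higher rows became 3 with no filter, 3 with TMM scaling, 3 with quantile normalization, 3 with the replicate block and 1 with the 5 FPKM filter. The losses were of SNORD63 and SNORD95, except under the stricter filter, where only SNORD63B was left. The 2 higher ratios became 1 with a pseudocount of 0.1, 18 with a pseudocount of 5, 1 with TPM, 1 with quantile normalization and 1 to 4 without 1 library (4 without HR-19011 replicate 3, 1 without vehicle replicate 1). Lower ratios numbered 72 to 75 without 1 library. The 2 higher snoRNP genes became 1 with a mean of at least 5 FPKM, since XRN1 falls below it. SNORD62B, not called, reversed to −0.0049 with TMM scaling, −0.0049 without HR-19011 replicate 2 and −0.07 without vehicle replicate 2 (−0.07 to 0.097 over all left-out libraries), and to −0.3253 with quantile normalization, where it was called lower (adjusted p = 0.00551). SNORD63 reversed to −0.1373 with quantile normalization (adjusted p = 0.196). The cause of these changes was not tested.

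Quantile normalization and TPM moved the median of all tested genes by −0.13 and 0.12 on the log2 scale. The median of the SNORD rows was then −1.24 against −0.06 for all genes, and −1.05 against 0.19. Hosts called higher numbered 26 to 30 and lower 21 to 23 across all alternatives, and RPS13, not called, was slightly negative under some. Same-numbered libraries did not deviate together (correlations −0.108 to −0.004), so no shared effect of the number was visible. Whether the libraries were paired by design is not known from this. The block called 101 rows lower. The calls of SNORD94, SNORD18C, SNORD42A, SNORD69 and SNORD117 were each lost without at least 1 library. With other rules for the rows, 103 of 189 rows with any signal were lower and 7 higher with no filter (all fitted genes 18.5% and 33.5%). Rows chosen on the vehicle mean gave 101 lower and 4 higher of 121 (all genes 40.7% and 42.8%), and rows chosen on the HR-19011 mean 88 and 6 of 105 (35.9% and 48.9%). The depth behind these short genes is unknown.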
